A study of Mus musculus with 4 samples.

Results

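The genes described here are 53 cytokine and chemokine genes, given as a list of gene symbols and measured in mouse T-helper 17 (Th17) cells by RNA sequencing. Each symbol matched 1 of the 50600 gene rows in the deposited count tables, so all 53 could be followed. The list holds interleukins, gp130 cytokines, haematopoietic growth factors, interferon gamma, growth factors of the EGF family and chemokines of the CC, CXC and XC classes. The rule names the genes and sets no threshold on a measured value, but the list was drawn up with earlier results of these data known.

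The 4 libraries form 1 group: primary Th17 cells of the mouse strain C57BL/6NJ, differentiated from CD4 T cells by a protocol that the labels link. No treatment, genotype or second condition is given, and age and sex are not recorded, so levels are described and no condition is compared. All headers include a mark of 2 hours, with no event from which it runs. The labels call the assay total RNA-seq and link a library protocol named for poly(A)+ RNA. Each library has its own biological replicate number in the labels, from 1 to 4, and its own biosample, under 1 shared donor identifier. Whether the biosamples were separate animals or cultures is not stated, and every SD and p-value below measures the spread between these libraries.

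Total counts ranged from 25847970 to 40652146 per library, and 3 counts, the most that an observed 0 allows, correspond to 0.0738 to 0.116 CPM (counts per 1e6 counts of the library). No library repeated another. Levels are in TPM, counts divided by exon length and scaled to a total of 1e6 per library. All 8 T cell markers examined reached 1 TPM, with a summed level of 7962 to 8417 TPM. Of 8 Th17 markers, 5 reached 1 TPM, and Il23r had 11 counts in all. The libraries fell apart on sex-linked genes: Xist was at 0.791, 0.602, 142 and 76.5 TPM and the Y-linked Ddx3y at 305, 213, 0.914 and 1.39 TPM, although the labels give 1 donor identifier. Eif2s3y, Kdm5d and Uty, also Y-linked, were likewise high in replicates 1 and 2 only. Replicates 1 and 2 thus differ in sex from replicates 3 and 4, and every SD and p-value below includes this difference. The main counts below are therefore also given for replicates 1 and 2 and for replicates 3 and 4 alone.

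Cytokines are small secreted proteins that bind receptor chains on the same cell or on neighbouring cells, and most signal through JAK kinases and STAT factors, or through NF-kB in the IL-1 and IL-17 families. Chemokines bind G protein coupled receptors and direct cell migration. Th17 cells are known for IL-17A, IL-17F, IL-21 and IL-22, and transcription of these genes is typically driven by stimulation through the T cell receptor.

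The promoters of 5 genes are shown because they belong to the most abundant members (Mif and Lif), the most abundant chemokine of the CXC class (Cxcl10), the only XC chemokine on the list (Xcl1) and the cytokine after which Th17 cells are named (Il17a). The most abundant CC chemokine, Ccl4, has no entry in the table of promoters used. Each run is the 250 bases before the RefSeq transcription start, read in the direction of the gene, from assembly GRCm38.p6. They lie at chr10:75860278-75860527 on the minus strand (Mif), chr11:4257318-4257567 on the plus strand (Lif), chr5:92348890-92349139 on the minus strand (Cxcl10), chr1:164935523-164935772 on the minus strand (Xcl1) and chr1:20730655-20730904 on the plus strand (Il17a). Capitals mark letters that match 1 of 5 motifs, searched on both strands: the TATA box (TATAAA), AP-1 (TGANTCA), the cAMP response element or CRE (TGACGTCA), the GC box (GGGCGG) and NF-kB.
Mif: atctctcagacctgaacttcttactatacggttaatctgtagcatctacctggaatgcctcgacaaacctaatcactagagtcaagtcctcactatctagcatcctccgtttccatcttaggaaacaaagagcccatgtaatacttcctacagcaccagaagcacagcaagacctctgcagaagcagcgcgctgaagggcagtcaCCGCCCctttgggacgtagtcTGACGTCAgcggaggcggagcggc
Lif: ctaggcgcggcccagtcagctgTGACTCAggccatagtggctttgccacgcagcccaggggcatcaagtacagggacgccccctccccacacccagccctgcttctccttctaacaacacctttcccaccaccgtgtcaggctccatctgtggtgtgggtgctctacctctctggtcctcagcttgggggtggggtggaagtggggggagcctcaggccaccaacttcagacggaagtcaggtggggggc
Cxcl10: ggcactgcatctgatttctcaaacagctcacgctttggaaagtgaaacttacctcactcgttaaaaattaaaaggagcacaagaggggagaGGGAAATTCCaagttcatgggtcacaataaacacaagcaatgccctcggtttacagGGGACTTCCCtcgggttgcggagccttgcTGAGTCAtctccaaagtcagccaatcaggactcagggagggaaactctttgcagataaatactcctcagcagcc
Xcl1: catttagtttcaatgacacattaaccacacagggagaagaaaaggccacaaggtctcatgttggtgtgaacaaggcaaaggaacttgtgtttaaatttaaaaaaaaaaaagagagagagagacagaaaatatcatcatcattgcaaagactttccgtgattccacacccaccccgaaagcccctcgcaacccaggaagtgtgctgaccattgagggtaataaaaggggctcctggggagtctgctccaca
Il17a: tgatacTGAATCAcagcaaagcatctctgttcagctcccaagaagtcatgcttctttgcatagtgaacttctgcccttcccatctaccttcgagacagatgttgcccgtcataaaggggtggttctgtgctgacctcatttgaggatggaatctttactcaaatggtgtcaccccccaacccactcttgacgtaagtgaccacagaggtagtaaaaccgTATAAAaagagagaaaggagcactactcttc
Counting the last base before the start as -1, the Mif run holds a CRE beginning at -24 and a GC box at -45. In the Lif run an AP-1 motif begins at -228. The Cxcl10 run holds NF-kB motifs at -159 and -103 and an AP-1 motif at -74. In the Il17a run a TATA box begins at -31 and an AP-1 motif at -244. The Xcl1 run has none of the 5, and no printed motif overlaps another. A match describes the letters only and is no evidence of binding.

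Of the 53 genes, 14 reached a mean of 1 TPM over the 4 libraries, 8 reached 10 TPM and 2 reached 100 TPM. Among all 21764 protein coding genes, 45.2% reached 1 TPM, so 14 of 53 was a smaller share than the background. Another 13 genes had 0 counts in every library, and 36.8% of protein coding genes did. The remaining 26 had counts and stayed below 1 TPM. The median over the 53 genes was 0.172 TPM, beside 0.279 TPM over protein coding genes. The number at 1 TPM was 14 in replicates 1 and 2 and 15 in replicates 3 and 4. A low level in bulk RNA can mean fewer expressing cells or less RNA per cell, and these cannot be told apart here.

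**Figure D1:**
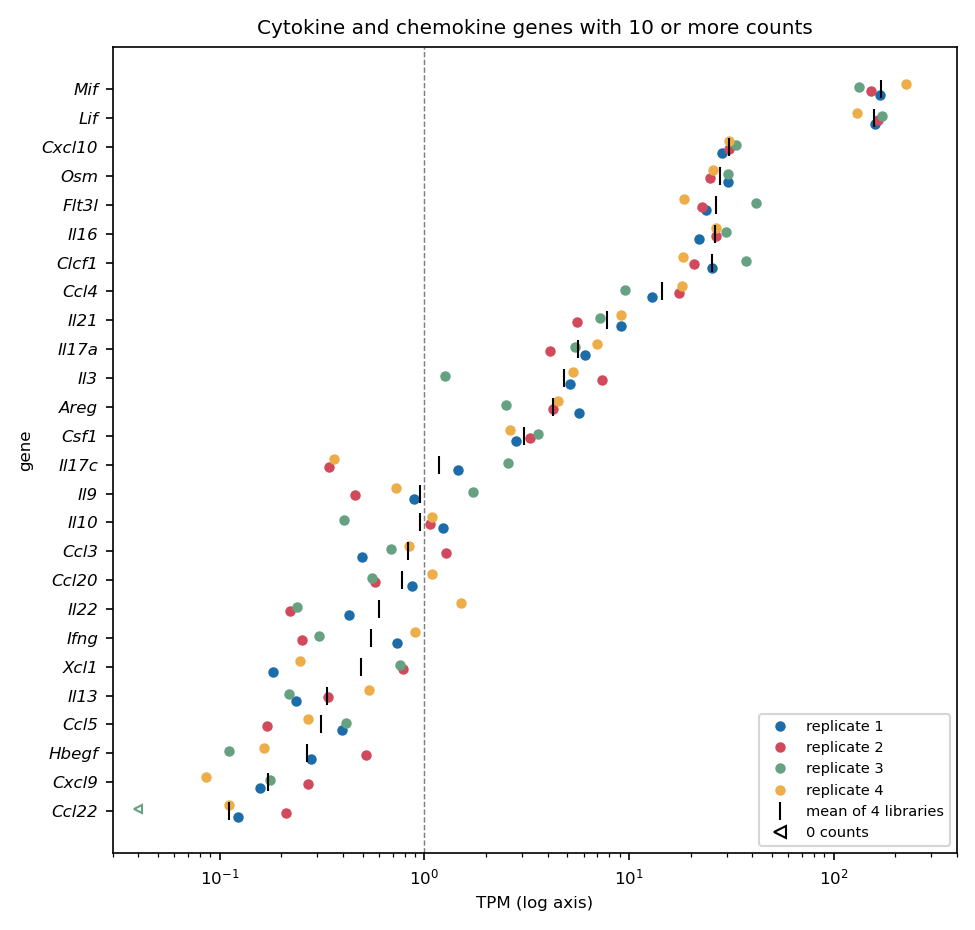
TPM (log axis) of the genes with 10 or more counts in all, in each of the 4 libraries (coloured points), with the mean as a bar and 1 TPM as a dashed line. Mif and Lif sit above 100 TPM in all 4 libraries, 6 further genes have means between 10 and 100 TPM, and the points spread more widely toward the bottom, where a library holds only a few counts.

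Together the 53 genes summed to 509, 492, 517 and 531 TPM in replicates 1 to 4, or 512 ± 16.3 TPM (SD, n = 4). The sum was nearly level over the libraries, with a mean of 500.4 TPM in replicates 1 and 2 and 524 TPM in replicates 3 and 4. It was concentrated in few genes. Mif and Lif made up 63.7 ± 3.32% of it and the 8 most abundant genes 93.3 ± 0.777% (SD, n = 4 for both). By family, the gp130 and OSMR cytokines held 41.1 ± 5.88%, the pair Mif and Il16 38.2 ± 6.74%, the XC and CXC chemokines 6.18 ± 0.459% and the haematopoietic growth factors 5.82 ± 2.08%. The listed genes of the IL-17 family (Il17a, Il17c and Il25) held 1.33 ± 0.290%, a value that leaves out Il17f, which is not on the list and stood at 12.4 TPM. In counts, without division by length, all 53 genes took 0.0419 ± 0.00256% of a library.

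Lif, Osm, Clcf1, Il6 and Il11 signal through the chain gp130 (Il6st), and are grouped here with Il31, which uses the oncostatin M receptor chain Osmr without Il6st. Il27 and Ebi3, whose receptor also holds Il6st, are counted with the IL-12 family. Of the 6 genes grouped here, Lif, Osm and Clcf1 reached 1 TPM. Lif (chr11:4257557-4272514, plus strand, mm10) encodes leukaemia inhibitory factor, known for holding mouse embryonic stem cells in self-renewal. It stood at 160, 165, 172 and 129 TPM, or 156 ± 18.8 TPM (SD, n = 4), with 26099 counts in all, the most of any member. This level lies at percentile 95.4 of protein coding genes. Replicate 4 was the lowest for Lif and the other 3 libraries lay close together. Osm, for oncostatin M, stood at 30.3, 25.0, 30.4 and 25.8 TPM (27.9 ± 2.88, SD, n = 4).

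Clcf1 encodes cardiotrophin-like cytokine factor 1, which also acts through the CNTF receptor. It stood at 25.3, 20.8, 37.4 and 18.4 TPM (25.5 ± 8.46, SD, n = 4), with replicate 3 above the other libraries, which lay within 18.4 to 25.3 TPM. Of its 31-base words, 7.33% also occur in another annotated gene, AC109138.7. Il11 had 3 counts in all, and Il6 and Il31 had 0. IL-6 is the cytokine that, with TGF-beta, drives Th17 differentiation.

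Mif, a cytokine secreted without a signal peptide, and Il16, cut from a long precursor, are made by many cell types, and both were above 10 TPM. Mif (chr10:75859353-75860240, minus strand), for macrophage migration inhibitory factor, stood at 168, 151, 133 and 226 TPM, or 169.9 ± 40.2 TPM (SD, n = 4, 4755 counts). Replicate 4 was the highest and replicate 3 the lowest. Mif and Lif changed order between libraries: Mif was higher in replicates 1 and 4 and Lif in replicates 2 and 3, and Mif minus Lif was 13.4 ± 58.9 TPM (SD, n = 4), within the spread between libraries. There were 923 protein coding genes above Mif. Of the 31-base words of Mif, 39.1% also occur in another gene, most often Gm10169, and fragments that align to several places were not counted, so its level is uncertain.

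Il16, whose mature product binds CD4, stood at 22.0, 26.7, 29.8 and 26.6 TPM (26.3 ± 3.21, SD, n = 4). Its exons are long, so its 7776 counts exceeded those of Mif although its TPM was lower. Within each library Mif exceeded Il16, by 2.63 ± 0.41 on the log2(TPM + 1) scale (SD, 4 of 4 libraries, exact two-sided sign-flip permutation p = 0.125, adjusted 0.196 over 11 pairs). On log2(CPM + 1), which leaves out the exon length, the difference was -0.71. The smallest p that 4 libraries allow in this test is 0.125, so no pair could pass 0.05.

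Among the haematopoietic growth factors, Flt3l and Csf1 were measured above 1 TPM and Csf3 had 0 counts. Flt3l encodes FLT3 ligand, the growth factor of dendritic cells and early progenitors. It stood at 23.7, 22.6, 41.9 and 18.6 TPM (26.7 ± 10.4, SD, n = 4). Replicate 3 was 2.26 times replicate 4, and the other 3 libraries lay between 18.6 and 23.7 TPM. Of the exon length of Flt3l, 22.1% is overlapped on the same strand by Gm45713, where fragments cannot be assigned to 1 gene. Csf1, the macrophage growth factor, was even across libraries at 2.81, 3.30, 3.57 and 2.62 TPM (3.08 ± 0.438, SD, n = 4).

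Of the 8 CC chemokines only Ccl4 reached 1 TPM. Ccl4, or MIP-1 beta, attracts immune cells and stood at 12.97, 17.6, 9.60 and 18.0 TPM (14.6 ± 4.02, SD, n = 4, 372 counts). Replicate 3 was the lowest. Its neighbour Ccl3, or MIP-1 alpha, had 4, 12, 4 and 5 counts (0.828 ± 0.334 TPM), and the difference of Ccl3 minus Ccl4 was -3.07 ± 0.31 on the log2(TPM + 1) scale (SD, 4 of 4 libraries, exact sign-flip permutation p = 0.125, adjusted 0.196). Ccl20, the CCR6 ligand associated with Th17 cells, had 13, 10, 6 and 12 counts (0.774 ± 0.256 TPM). Ccl5 had 4, 2, 3 and 2 counts, Ccl22 had 3, 6, 0 and 2, and Ccl1 had 2 in all. Ccl6 and Ccl9 had 0.

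Of the 7 XC and CXC chemokines only Cxcl10 reached 1 TPM. Cxcl10 is an interferon-induced ligand of CXCR3, and it was the steadiest of the 14 genes at 28.3, 30.9, 33.2 and 30.8 TPM (30.8 ± 1.98, SD, n = 4, 2623 counts). Cxcl9, which shares the receptor, had 5, 10, 4 and 2 counts (0.172 ± 0.0763 TPM). Cxcl9 minus Cxcl10 was -4.76 ± 0.12 on the log2(TPM + 1) scale, the same sign in 4 of 4 libraries (SD, exact sign-flip permutation p = 0.125, adjusted 0.196). Xcl1, or lymphotactin, had 1, 5, 3 and 1 counts (0.492 ± 0.322 TPM). Cxcl16 had 8 counts in all, Cxcl3 had 6, Cxcl2 had 4 and Cxcl1 had 0. The last 3 attract neutrophils, a response for which IL-17A is known in epithelial cells.

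The IL-17 family was represented by Il17a and Il17c. Il17a (chr1:20730905-20734496, plus strand) stood at 6.09, 4.12, 5.41 and 6.96 TPM (5.65 ± 1.20, SD, n = 4), from 75, 59, 48 and 63 counts. It was lowest in replicate 2 and highest in replicate 4, as was Il17f, a Th17 cytokine outside the list, at 10.2, 7.04, 11.7 and 20.8 TPM. No relation between the 2 genes was tested. Il17c, better known from epithelial cells, stood at 1.46, 0.341, 2.57 and 0.360 TPM from 11, 3, 14 and 2 counts. Replicates 2 and 4 lay far below the others. Its mean of 1.18 TPM fell to 0.719 TPM without replicate 3. Il25 had 0 counts.

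Among the listed cytokines of the common gamma chain, counted here with Il13, Il21 was the only one at 1 TPM. This leaves out Il2, which is not on the list and stood at 23.1 TPM. Il21 supports B cell help and Th17 cells themselves, and stood at 9.17, 5.58, 7.23 and 9.18 TPM (7.79 ± 1.73, SD, n = 4, 1527 counts). Il21 exceeded Il17a in every library, with ratios of 1.51, 1.35, 1.34 and 1.32. The mean difference was 0.40 ± 0.08 on the log2(TPM + 1) scale (SD, exact sign-flip permutation p = 0.125, adjusted 0.196). The marker cytokines of Th2 and Th9 cells were low. Il9 had 5, 3, 7 and 3 counts (0.948 ± 0.547 TPM), Il13 had 3, 5, 2 and 5 (0.333 ± 0.146 TPM), and the 4 counts of Il4 all came from replicate 3. Il7 and Il15, which stromal and myeloid cells supply to T cells, had 0 counts.

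In the common beta chain family Il3, known for mast cell and basophil growth, reached 5.14, 7.41, 1.26 and 5.35 TPM (4.79 ± 2.57, SD, n = 4). Its counts were 34, 57, 6 and 26, and the highest library was 5.88 times the lowest. Replicate 3 stood apart below the other libraries. Csf2, for GM-CSF, had 5, 2, 0 and 2 counts, and Il5 had 1 in all.

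The EGF family members both bind the EGF receptor. Areg, for amphiregulin, known from tissue repair by T cells, stood at 5.72, 4.24, 2.50 and 4.47 TPM (4.23 ± 1.32, SD, n = 4, 201 counts). Replicate 1 was the highest and replicate 3 the lowest. Hbegf had 7, 15, 2 and 3 counts (0.268 ± 0.180 TPM). Areg minus Hbegf was 2.02 ± 0.35 on the log2(TPM + 1) scale, the same sign in 4 of 4 libraries (SD, exact sign-flip permutation p = 0.125, adjusted 0.196).

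No gene of the IL-10 family, the IL-12 family or the IL-1 family reached 1 TPM, nor did Ifng. Il10, the anti-inflammatory cytokine, was nearest at 17, 17, 4 and 11 counts (0.946 ± 0.370 TPM). Il22, an epithelial defence cytokine of Th17 cells, had 5, 3, 2 and 13 counts (0.601 ± 0.617 TPM). Replicate 4 alone held more than the other 3 libraries together, and 53.6% of its 31-base words also occur in the paralogue Iltifb. Ifng had 10, 4, 3 and 9 counts (0.548 ± 0.318 TPM), and 25.9% of its exon length is overlapped by Gm49751 on the same strand. These levels rest on few counts. None of the 3 passed the count filter, and without it edgeR called none of them, where 85 of all 20719 genes tested were called.

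The subunits and interleukins usually supplied by antigen-presenting cells were at or near 0. Il23a, the p19 subunit of IL-23, had 1 count, while Il12b, the p40 subunit it pairs with, and Il12a had 0. Ebi3 had 8 counts and its IL-27 partner Il27 had 0. In the IL-1 family Il1a had 7 counts, Il1b 3, Il18 2 and Il33 0. Il24 of the IL-10 family had 4. The pairs Il23a with Il12b, Il12a with Il12b, Il27 with Ebi3, Il1a with Il1b and Ccl6 with Ccl9 had at most 3 counts per gene in every library, so no ratio is given for them.

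Values on either side of 1 TPM depended on single libraries. The genes just inside were Il17c (1.18 TPM) and Csf1 (3.08 TPM), and those just outside were Il9 (0.948 TPM) and Il10 (0.946 TPM). Without replicate 3, Il17c left the set and Il10 entered it at 1.13 TPM. Il9 entered at 1.11 TPM without replicate 2 and at 1.02 TPM without replicate 4. Apart from Il17c, the other 13 genes were at or above 1 TPM in each of the 4 libraries. In the order of means, Cxcl10, Osm, Flt3l, Il16 and Clcf1 formed a run from 30.8 to 25.5 TPM in which each overlapped the next. Ccl4 lay below all libraries of Clcf1, and Il21 below all libraries of Ccl4. Il21, Il17a, Il3 and Areg overlapped in turn between 9.18 and 1.26 TPM.

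Neighbouring genes often differed widely in level. Within 1 Mb of each other, 24 of the 53 genes formed 8 loci. In 5 of these loci at least 1 gene reached 1 TPM, and in 1, Osm with Lif, every member did. Osm and Lif lie 16.5 kb apart on chromosome 11, and Lif exceeded Osm with ratios of 5.27, 6.61, 5.65 and 5.01 in replicates 1 to 4, or by 2.44 ± 0.17 on the log2(TPM + 1) scale (SD, 4 of 4 libraries, exact sign-flip permutation p = 0.125, adjusted 0.196). In the region of the Th2 cytokines on chromosome 11, Il3 was the only one of 5 genes at 1 TPM, and Csf2, 15.6 kb away, had 9 counts to the 123 of Il3. Ccl4 was the only one of 5 in its CC cluster, with Ccl3 13.2 kb away. Cxcl10 lies 18.6 kb from Cxcl9, and Areg was the only one of the 4 genes it shares a region with, the others being Cxcl1, Cxcl2 and Cxcl3.

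**Figure D2:**
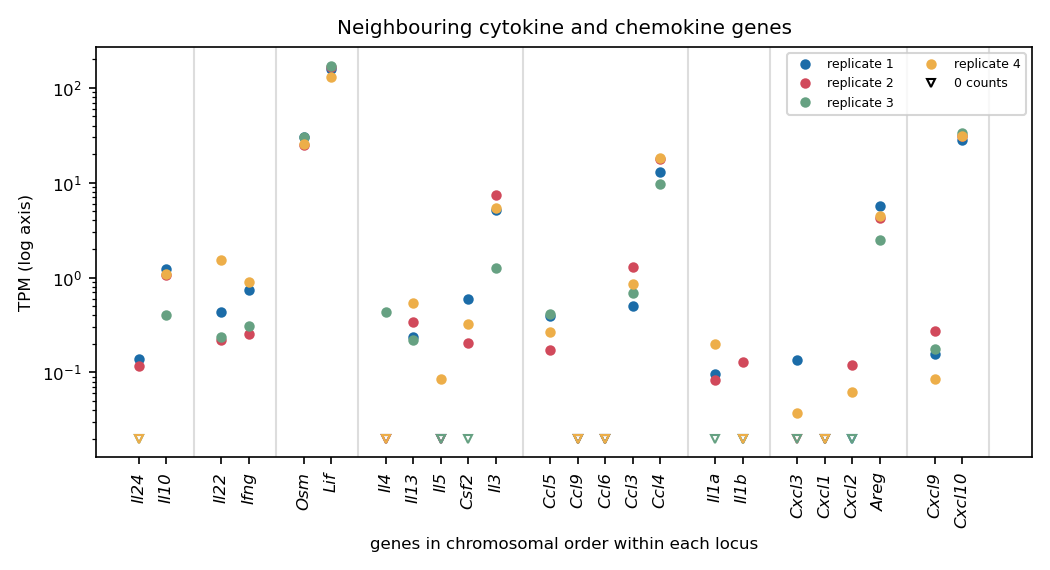
TPM (log axis) in each library for the 24 genes that lie within 1 Mb of another member, in chromosomal order, with grey lines between the 8 loci and open triangles at the bottom for libraries with 0 counts. Osm and Lif are both high, while Il3, Ccl4, Areg and Cxcl10 each stand above their neighbours in all 4 libraries.

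Each ligand was set beside the receptor chains it is known to need, 55 chains in all. Of the 55 chains, 29 reached 1 TPM and 4 had 0 counts, where 45.2% and 36.8% of all protein coding genes did. A full receptor at 1 TPM was present for 23 ligand genes: 5 of the 14 at 1 TPM, among them Il21, Mif, Il16 and Cxcl10, and 18 of the 39 below it. Il12a with Il12b and Il27 with Ebi3 are subunit pairs, and each gene was counted on its own. The number of 5 became 8 with a limit of 0.5 TPM for ligand and receptor, 4 with a limit of 2 TPM, and 6 without replicate 3.

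The gp130 cytokines illustrate an uneven set of chains. Il6st stood at 390.5 ± 31.6 TPM (SD, n = 4), but Lifr had 24 counts (0.0596 TPM), Osmr 1 and Cntfr 1, so the partner chains of Lif, Osm and Clcf1 were near 0. The same held for Il17a and Il17c: Il17ra stood at 144 ± 20.8 TPM (SD, n = 4), while Il17rc had 1 count and Il17re had 5. For Il3 and Csf2 the alpha chains Il3ra (12.1 ± 3.26 TPM) and Csf2ra (13.7 ± 3.32 TPM) were present and the shared signalling chain Csf2rb had 5 counts. The mouse also has a second beta chain for IL-3, which was not among the 55. The single-chain receptors of Flt3l (Flt3, 7 counts), Csf1 (Csf1r, 2 counts) and Areg (Egfr, 14 counts) were near 0.

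Ligands with a complete receptor included Il21, whose chains were the most abundant: Il21r stood at 584 ± 53.0 TPM and the common gamma chain Il2rg at 540.4 ± 28.4 TPM (SD, n = 4). Cd4, which binds mature IL-16, stood at 364 ± 35.1 TPM, and Cd74, a MIF receptor, at 10.7 ± 1.27 TPM. Cxcr3, for Cxcl10, was at 1.69 ± 0.728 TPM. Among ligands below 1 TPM, Il10ra (22.8 ± 8.19 TPM) with Il10rb (9.34 ± 0.756 TPM), Ifngr1 (255 ± 28.7 TPM) with Ifngr2 (183 ± 16.3 TPM), and Il4ra (497 ± 21.04 TPM), with Il2rg, formed full receptors for Il10, Ifng and Il4. Il22ra1, the specific chain for Il22, had 0 counts. None of the 30 chains tested varied between libraries beyond genes of like level (edgeR, adjusted p under 0.05). Over all 11567 genes tested only 0.813% did, so 0 of 30 does not set the chains apart.

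**Figure D3:**
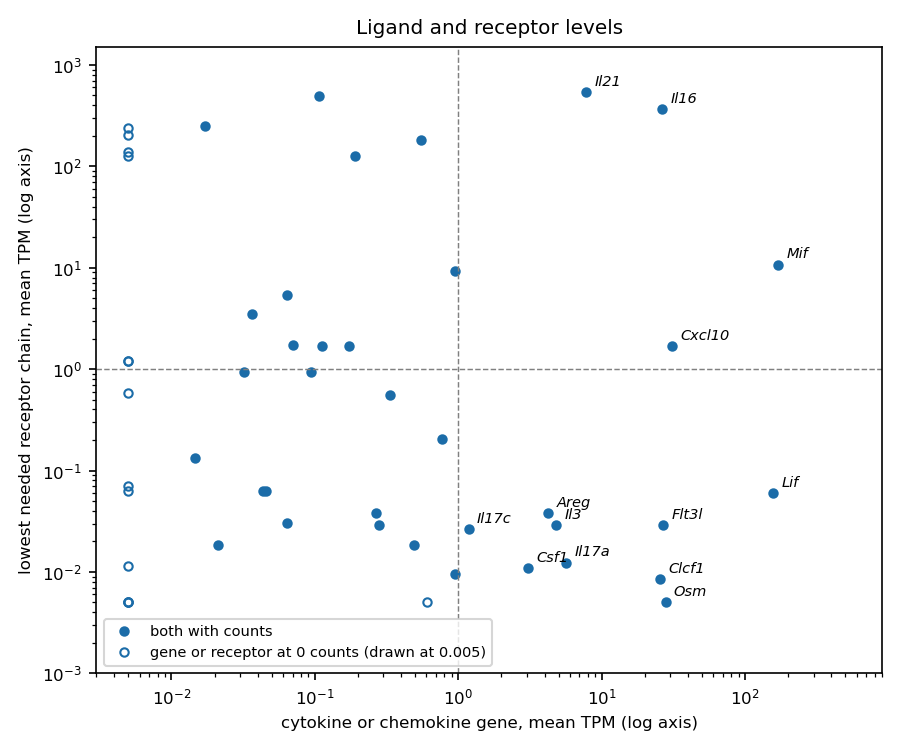
Mean TPM of each gene (x, log axis; Ccl3, Ccl4 and Ccl5 are not drawn) against the mean TPM of the lowest chain its receptor needs (y, log axis), with dashed lines at 1 TPM and open circles where gene or receptor had 0 counts. Il21, Il16, Mif and Cxcl10 lie in the upper right, and the other 9 genes drawn at 1 TPM, among them Lif at 156 TPM with Lifr at 0.0596 TPM, lie below the horizontal line.

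Several of these cytokines are cut from precursors or membrane forms. Of 11 genes for such processing, 9 reached 1 TPM, where 45.2% of all protein coding genes did. The highest were Casp8 at 336 ± 27.1 TPM, the proprotein convertase Furin at 162 ± 14.1 TPM, and Adam10, a sheddase of membrane-bound ligands, at 66.9 ± 4.21 TPM (SD, n = 4). Among 38 cytokine and chemokine genes outside the list, 6 reached 1 TPM and 26 had 0 counts, beside 45.2% and 36.8% of all protein coding genes. The highest were Tgfb1 at 181 ± 27.1 TPM, Il2 at 23.1 ± 14.2 TPM and Il17f at 12.4 ± 5.91 TPM. Both Il2 and Il17f varied between libraries (edgeR, adjusted p = 7.3e-05 and 0.0171) and both were highest in replicate 4, at 43.5 and 20.8 TPM.

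Markers of other cells that make such cytokines were mostly low. Of 11 myeloid markers 1 reached 1 TPM (Cd68, 10.4 TPM), their sum ranged from 7.57 to 19.2 TPM, S100a8 was at 0, and Lyz2 had 2 counts. Of 10 dendritic cell markers 3 did, led by Cst3 (56.9 TPM) and Cd74, with Clec9a and Siglech at 0 and a sum of 61.1 to 79.8 TPM. Of 9 B cell markers 3 did, led by Ighm (138 TPM), with Ms4a1 at 0 and a sum of 126 to 156 TPM. Of 6 NK cell markers 2 did, with Ncr1 and Klrb1c at 0 and a sum of 3.19 to 5.79 TPM. Of 6 mast cell and basophil markers only Kit did (4.61 TPM), with Mcpt8, Ms4a2, Fcer1a and Gata2 at 0 and a sum of 4.05 to 6.32 TPM. The CD8 markers summed to 21.2 to 31.2 TPM, nearly all of it Cd8b1 (27.0 TPM), while Cd8a had 32 counts (0.216 TPM). The 3 matched of 5 gamma delta T cell markers summed to 3.09 to 3.84 TPM, and the 9 stromal and epithelial markers to 7.31 to 10.2 TPM. The part of any of these cells in the cytokine levels was not tested.

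The listed genes were then tested for differences between libraries beyond those of genes at a like level. In a negative binomial fit with edgeR over 11567 genes, 94 genes varied beyond the trend (adjusted p under 0.05), or 0.813%. None of the 12 listed genes that passed the count filter was among them. Il2 and Il17f, cytokine genes that are not on the list, were (edgeR, adjusted p = 7.3e-05 and 0.0171). The list was drawn up with earlier results of these data known, so 0 of 12 holds for the listed genes only. At an unadjusted p under 0.05, 3 of the 12 were past the limit, where 5.98% of all genes tested were. In the chi-square test of the edgeR deviance these were Flt3l (p = 0.00231, adjusted p = 0.159), Mif (p = 0.00545, adjusted p = 0.251) and Clcf1 (p = 0.0166, adjusted p = 0.480). Without the count filter 40 of the 53 could be tested and 0 were called, where 85 of all 20719 genes tested were. Il3, left out by the filter, then had a chi-square p = 0.0181 and an adjusted p = 0.681. With DESeq2 dispersions, 0 of 12 were called, beside 94 of all 11567 genes. With replicates 1 and 2 alone 0 of 14 were called, beside 21 of 12081 genes. With replicates 3 and 4 alone 0 of 12 were, beside 18 of 11675. At shares this small, 0 called does not set the listed genes apart.

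**Figure D4:**
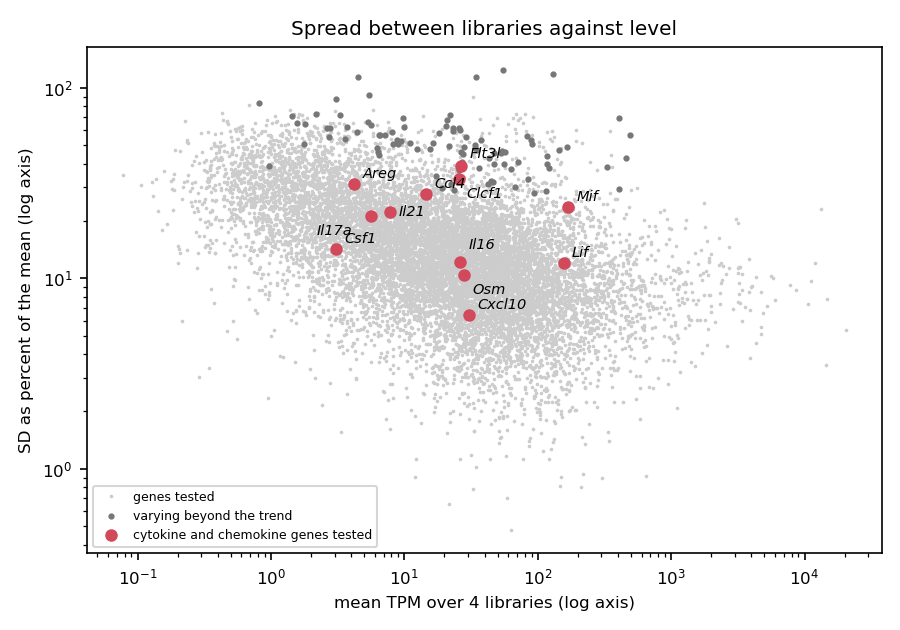
SD between the 4 libraries as a percent of the mean (y, log axis) against mean TPM (x, log axis) for the 11567 genes tested, with the 94 varying genes in dark grey and the 12 cytokine and chemokine genes tested in red. Flt3l, Clcf1 and Mif lie high for their level and Cxcl10 low, and none of the 12 is among the dark points. Il2 and Il17f, which are not on the list, are among the dark points.

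The spread of the 14 genes at 1 TPM had a median of 23.0% of the mean, beside 13.4% over all genes tested, whose levels differ from theirs. The 14 include Il3 (53.6%) and Il17c (89.9%), which did not pass the count filter that all genes tested passed. Replicate 3 was the highest library for 8 of the 14 genes in TPM and for 50.2% of all genes tested. After scaling by TMM factors instead, it was the highest for 3 of the 14 (Flt3l, Clcf1 and Il17c) and for 30.3% of genes tested. Flt3l and Clcf1 were thus highest in replicate 3 on both scales, and so was Malat1, a nuclear non-coding RNA named after its values were seen, at 427, 209, 795 and 188 TPM (edgeR, adjusted p = 5.5e-10). Its part in the levels of Flt3l and Clcf1 was not tested. Replicate 3 was the lowest library for Mif, Ccl4, Il3 and Areg on both scales.

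**Figure D5:**
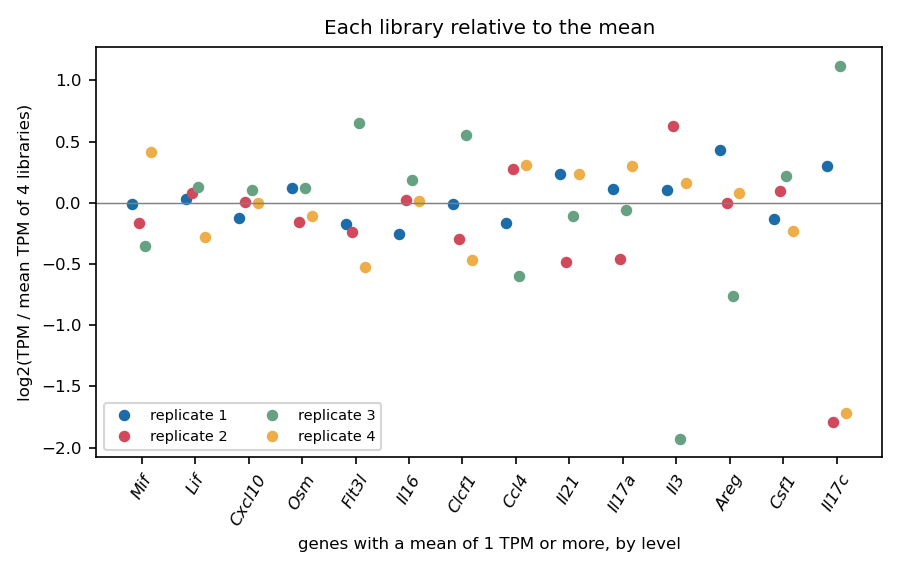
Level of each of the 14 genes at 1 TPM in each library, as log2 of TPM over the mean TPM of the 4 libraries, in order of mean level. Replicate 3 lies above the other libraries for Flt3l, Clcf1 and Il17c and below them for Mif, Ccl4, Il3 and Areg, and the 4 libraries nearly coincide for Cxcl10.

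Promoter letters were compared over 300 bases around the start (250 before and 50 after). A RefSeq entry was found for 39 of the 53 genes, with 45 promoters, and for 13 promoters of the genes at 1 TPM. The NF-kB motif occurred in 22.2% of the 45, beside 4.51% of all 32851 promoters of that length. The TATA box occurred in 31.1% beside 13.6%, AP-1 in 22.2% beside 7.81%, the CRE in 4.44% beside 1.79%, and the GC box in 24.4% beside 35.7%. Between genes at 1 TPM (13 promoters) and genes below it (32 promoters), the NF-kB motif was found in 23.1% and 21.9%, the TATA box in 23.1% and 34.4%, AP-1 in 30.8% and 18.8%, and the GC box in 38.5% and 18.8%. The CRE was found in 2 of the 13 (15.4%) and 0 of the 32. These shares are descriptions without a test, over few promoters, and some genes contribute more than 1 promoter.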

How the data were processed

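RNA of 4 Th17 libraries was sequenced. The authors deposited whole counts of fragments for each gene. Per the file headers, featureCounts 1.4.6-p4 assigned read pairs to GENCODE M13 exons (mm10) with strand option 2 (reverse). An aligner version was not found in these sources. No option for fragments with several alignments was recorded, so genes with near-identical copies are undercounted.

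TPM, FPKM and CPM were computed from the counts and the exon lengths in the same tables. Symbols and biotypes came from GENCODE M21, and 224 of 50600 rows had none. The percent of shared 31-base words came from M21 transcripts. Total counts per replicate were 36298276, 40652146, 26953724 and 25847970, and limits from 3 counts cover counting error only. Libraries differed from each other with a chi-square of 16.3 to 54.1 per degree of freedom.

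Variation was fitted with edgeR 4.0.16 in R 4.3.3: intercept only, its expression filter, TMM, and the deviance at the trended dispersion against chi-square with 3 degrees of freedom, Benjamini-Hochberg adjusted over all genes tested. DESeq2 1.42.0 gave alternative size factors and dispersions. A quasi-likelihood test needs a coefficient to test, and 1 group has none. The 11 gene pairs were compared by flipping signs over the libraries (exact permutation test, two-sided).

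Genes at a mean of 1 TPM or more are given in every library and the others by counts, receptor chains for those genes and for Il17a, Il22, Il10, Ifng, Il4 and Csf2, and other lists by their 3 highest genes and the markers at 0. Proteins had been planned for the highest genes by class, but promoters from RefSeq (GRCm38.p6) are shown in their place. Some items are not reported here. The members, lists and pairs were chosen with earlier results of these data known. Tables and plots were made in Python 3.11.15 with pandas 2.3.3, numpy 2.4.6, matplotlib 3.10.9 and scipy 1.17.1.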

Additional observations from a re-analysis of the deposited data

Results flagged for a closer look

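Of 44 values examined for a library far from the rest (genes at 1 TPM, receptor chains at 1 TPM and the summed level), 1 stood out. Il27ra, the specific receptor chain for IL-27, stood at 112, 119, 165 and 113 TPM in replicates 1 to 4, and the gap of replicate 3 to the next library was 0.868 of the whole range, above Dixon's 95% critical value for 4 libraries. Chance flags about 1 in 20 such groups, so 1 flag among 44 values is no more than chance would give. In edgeR, Il27ra had an adjusted p of 0.999961.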

How the results depend on the processing

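The number of genes at 1 TPM stayed within 1.5 times of 14 under each setting tried: 20 at 0.5 TPM, 13 at 2 TPM, 12 with FPKM, and 14 to 15 without 1 replicate. The summed level of 512 TPM became 548 TPM when TPM was scaled to protein coding genes only and 342 TPM without Mif. Mif minus Il16 reversed from 2.63 on log2(TPM + 1) to -0.71 on log2(CPM + 1), which leaves out exon length, and the other 5 pairs reported kept their sign in each setting. Ligands at 1 TPM with a full receptor numbered 5 and became 8 at 0.5 TPM and 4 at 2 TPM. The 94 varying genes became 256 with a common dispersion, 35 to 60 without 1 replicate (60, 39, 59 and 35 without replicates 1 to 4), 21 in replicates 1 and 2 alone and 18 in replicates 3 and 4 alone. These last fits have fewer samples, and 0 of the listed genes that were tested were called in any fit. That holds for the listed genes only, since the list was drawn up with earlier results known and leaves out Il2 and Il17f. Genes highest in replicate 3 went from 8 in TPM to 3 after TMM scaling. TMM scaling of that count and the fits on 2 libraries were chosen after seeing the data. No paired analysis was possible because all 4 libraries belong to 1 group. Depth limits the 26 genes below 1 TPM with counts, of which 14 had at most 9 counts in all.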
